A study of Homo sapiens with 4 samples.

Results

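The keratins described here are 10 genes of the keratin family, comprising the epithelial keratins KRT5, KRT7, KRT8, KRT14, KRT18, KRT19 and KRT80 and the hair keratins KRT81, KRT83 and KRT86. They were chosen by name, and every probe that could be assigned to them was taken. This gave 11 probes for 9 of the 10 genes, among 47323 probes on the array and 15607 genes that could be named. No accession in the authors' table matched KRT86 in the annotation used, so KRT86 is not reported. Transcript levels had been measured on Illumina expression BeadChips in MDA-231 cells (MDA-MB-231), a human triple-negative breast cancer line with mesenchymal features. A plasmid expressing TARBP2, which binds double-stranded RNA and works with DICER1, from the CMV promoter (pCMV-TARBP2) was transiently transfected into 2 samples, and a plasmid expressing GFP from the same promoter (pCMV-GFP) into 2 others. RNA was taken 48 h after transfection in all 4. The series' design text calls the controls mock-transfected, whereas the sample labels name the GFP plasmid. Nothing in the labels tells whether the samples of a group were grown separately, and the p-values rest on the variation among these 4 samples alone, which could be purely technical.

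Keratins are the intermediate filament proteins of epithelial cells. A filament needs one acidic type I keratin and one basic type II keratin, and pairs such as KRT8 with KRT18 (simple epithelia) or KRT5 with KRT14 (basal layers) are characteristic of a cell type. Plakins tie the filaments to desmosomes and hemidesmosomes, and in breast cancer the set of keratins a tumour expresses is used to tell luminal from basal disease. Hair keratins normally form the hair shaft.

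Between 44.1% and 45.9% of probes were above background on each array (detection p under 0.05), and the median raw intensity was 74.5 to 78.7. The transfected gene, TARBP2, had mean log2 levels of 15.12 with its plasmid and 7.12 with GFP, a 257-fold rise (limma adjusted p = 4.79e-05). The probe of a different TARBP2 transcript had a log2 change of -0.22 (adjusted p = 0.0722). Of 22123 detected probes 40.3% differed between the groups at an adjusted p under 0.05, 20.5% being higher with TARBP2 and 19.8% lower. Among the 9604 detected probes that carried a gene symbol, as the keratin probes do, 44.4% differed, 22.8% being higher and 21.5% lower, and in a fit of named genes only the share was 50.6%. Of 6 mesenchymal markers expected of the line, VIM, AXL, CAV1, CD44, ZEB1 and FN1, all were above background on all 4 arrays, though ZEB1 (raw intensity 148 to 169) and FN1 (107 to 119) were dim. VIM, the mesenchymal intermediate filament, had log2 levels of 14.38 and 14.46 on the TARBP2 arrays and of 14.60 and 14.59 on the GFP arrays by 1 of its probes. That probe did not pass (log2 change -0.17, limma adjusted p = 0.136), and the other VIM probe fell (-0.25, 0.0484). CD44, a surface receptor high in mesenchymal breast cells, had mean levels of 13.33 and 13.35 by its brightest probe. Another CD44 probe had a log2 change of -0.44 and did not pass (limma adjusted p = 0.0836). AXL fell by both of its probes, with log2 changes of -0.52 (limma adjusted p = 0.00741) and -0.44 (0.0124). ZEB1, FN1 and CAV1 did not pass by any probe. Of 8 luminal markers with a probe, KRT8 and KRT19 were above background on all 4 arrays, KRT18 and CDH1 on the GFP arrays only and GATA3 on the TARBP2 arrays only, while ESR1, ESRP1 and GRHL2 failed the detection filter.

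KRT81 rose and KRT7 and KRT19 fell, each by more than 2-fold, while KRT8 and KRT80 did not pass the test. KRT5 and KRT14 were at background on every array and KRT83 on 3 of 4, and none of these was tested. In all, 7 of the 11 keratin probes were above background on at least 2 arrays and were tested. Of these 1 rose, 3 fell and 3 did not pass. One of the falls, a KRT18 probe, entered the test only through the GFP arrays, where it was higher, and among the 6 probes above background on all 4 arrays 3 differed. A call share of 4 in 7 is to be read against the background of 40.3% over all detected probes and 44.4% over those with a symbol. The groups did not overlap for 6 of the 7, and 71.7% of all detected probes and 76.3% of those with a symbol showed the same separation. In bulk RNA, fewer cells with a transcript and less transcript per cell cannot be told apart.

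**Figure D1:**
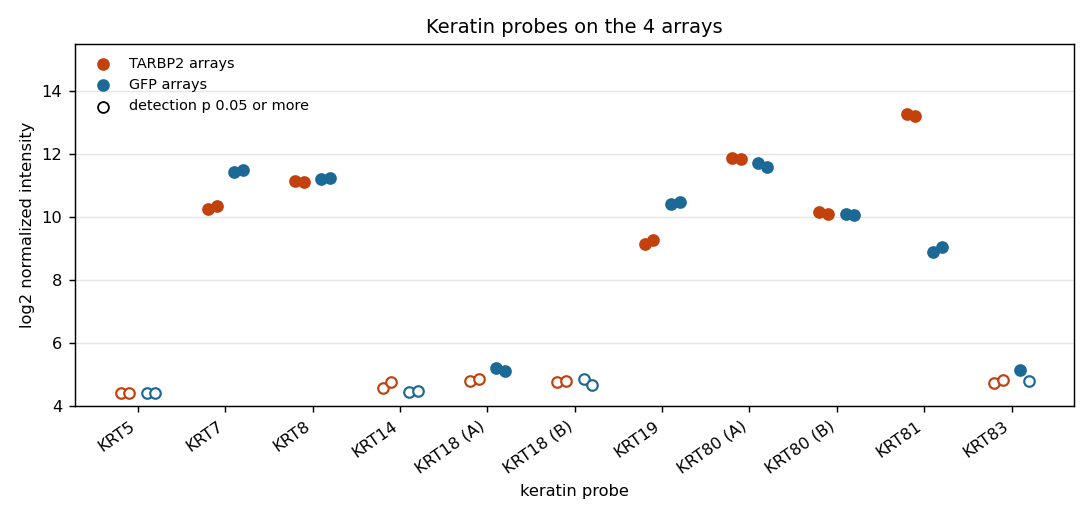
Normalized log2 intensity of each of the 11 keratin probes on the 2 TARBP2 arrays and the 2 GFP arrays, with 1 point per array and open points where the detection p was 0.05 or more. KRT81 stands at 13.26 and 13.22 with TARBP2 against 8.90 and 9.03 with GFP, KRT7 and KRT19 lie lower with TARBP2, and KRT5, KRT14 and KRT18 probe B have open points on every array. KRT18 and KRT80 have a pair of probes each, A and B.

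Among the hair keratins, KRT81, a type II keratin of the hair cortex, had log2 levels of 13.26 and 13.22 on the TARBP2 arrays and of 8.90 and 9.03 on the GFP arrays. Both TARBP2 arrays were thus far above both GFP arrays, and the replicates of each group lay close together. On the log2 scale the rise was 4.27 ± 0.09 (SE, n = 2 arrays per group), which is 19.3-fold (limma adjusted p = 7.57e-05). It was the rise of rank 11 among the 22123 probes. On the raw scale the KRT81 probe read 9685 and 9616 with TARBP2 and 519 and 578 with GFP, so that it was above background on every array. The authors' deposited table gives a log ratio of 4.05 for the same accession.

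KRT83, another type II hair keratin, was above background on 1 GFP array only, at a raw intensity of 84.7, and read 74.1 on the other GFP array and 68.8 and 71.0 on the TARBP2 arrays. It therefore was not tested. KRT81, KRT83 and KRT86 are close relatives in sequence, and probe sequences were not used here, so the KRT81 signal may include transcripts of its relatives.

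Among the simple-epithelial keratins, KRT7, a type II keratin of ductal and glandular epithelia, had log2 levels of 10.25 and 10.34 on the TARBP2 arrays and of 11.43 and 11.48 on the GFP arrays. The groups did not overlap. KRT7 was 2.23-fold lower with TARBP2 (log2 change -1.16 ± 0.08, SE, n = 2 arrays per group, limma adjusted p = 0.00111). KRT19, the smallest type I keratin and a marker of luminal and progenitor cells in the breast, had log2 levels of 9.14 and 9.27 on the TARBP2 arrays and of 10.41 and 10.48 on the GFP arrays. The groups did not overlap here either, and KRT19 was 2.37-fold lower (log2 change -1.25 ± 0.09, SE, n = 2 arrays per group, limma adjusted p = 0.00116). Of all detected probes 6.74% changed by at least 2-fold in either direction, and of those with a symbol 7.92%. KRT7 and KRT19 stood at ranks 525 and 465 among the falls. In the authors' deposited table, the log ratios were -1.10 for KRT7 and -1.09 for KRT19, and these were the only accessions of the 9 keratins that the table classes as down-regulated. Its header names no class for a rise, only down-regulated and background, and KRT81 is classed as background.

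KRT8, the type II keratin of simple epithelia, was bright on every array, with log2 levels of 11.14 and 11.10 with TARBP2 and of 11.19 and 11.24 with GFP. The TARBP2 arrays were slightly below the GFP arrays without overlap, but the change of -0.10 ± 0.07 (log2, SE, n = 2 arrays per group) did not pass the limma test (adjusted p = 0.356). Its 95% interval ran from -0.29 to 0.10. A change of the size seen for KRT7 or KRT19 lies outside that interval.

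KRT18, the type I partner of KRT8, was read by a pair of probes that were both near background, although KRT8 was bright. Probe sequences were not used, and how well these probes report KRT18 was not tested. Probe A had log2 levels of 4.78 and 4.84 on the TARBP2 arrays, where it was not above background, and of 5.18 and 5.09 on the GFP arrays, where it was. It was at least 1.06-fold lower with TARBP2, where the bound sets the GFP mean against the lowest detected level (limma adjusted p = 0.0334). This call was lost under 10 of 11 other settings (adjusted p = 0.0546 to 0.137) and held when only named genes were fitted (0.0192), and the probe had passed the detection filter only through the GFP arrays. Probe B was not above background on any array, with raw intensities of 70.2 and 70.4 with TARBP2 and of 76.4 and 69.1 with GFP. KRT8 and KRT18 have many processed pseudogenes in the human genome, and a contribution of these to either signal was not tested.

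KRT80, a type II keratin found in many epithelia, was read by a pair of probes. Probe A had log2 levels of 11.86 and 11.84 with TARBP2 and of 11.71 and 11.60 with GFP, so that the groups did not overlap. Its change of 0.19 ± 0.08 (log2, SE, n = 2 arrays per group) did not pass in limma (adjusted p = 0.116; 95% interval -0.01 to 0.40). Probe B had levels of 10.16 and 10.08 against 10.11 and 10.05, which overlapped, and a change of 0.04 ± 0.08 (adjusted p = 0.71). The 2 KRT80 probes were assigned through the mean of their values and are less certain than the others. With the median change of neighbouring genes taken off, probe A passed (log2 change 0.30, adjusted p = 0.0249).

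The basal keratins were at background. KRT5, the type II keratin of basal epithelial cells, had raw intensities of 52.0 and 50.4 with TARBP2 and of 55 and 54.6 with GFP, below the array median of each. KRT14, its type I partner, read 61.7 and 68.9 with TARBP2 and 57.3 and 58.8 with GFP. Neither gene was above background on any array, and neither was tested.

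The RefSeq promoter table (GRCh38.p14) held entries for KRT5 and KRT8 among the 10 genes, and both are shown as an example of a keratin at background and a bright keratin in these cells. Each run is the 250 bases ahead of a transcript start, on the minus strand, written 5′ to 3′. KRT5 lies at chr12:52520395-52520644 and KRT8 at chr12:52926470-52926719, where the KRT8 window belongs to the start the table lists for a gene with 4 RefSeq transcripts. Capitals mark the E2 box CAGGTG, to which ZEB and SNAI repressors bind.
KRT5: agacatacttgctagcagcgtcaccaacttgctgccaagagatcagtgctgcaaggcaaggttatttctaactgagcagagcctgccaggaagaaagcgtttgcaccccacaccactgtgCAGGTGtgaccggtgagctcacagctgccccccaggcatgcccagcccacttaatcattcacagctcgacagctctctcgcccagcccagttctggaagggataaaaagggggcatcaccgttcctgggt
KRT8: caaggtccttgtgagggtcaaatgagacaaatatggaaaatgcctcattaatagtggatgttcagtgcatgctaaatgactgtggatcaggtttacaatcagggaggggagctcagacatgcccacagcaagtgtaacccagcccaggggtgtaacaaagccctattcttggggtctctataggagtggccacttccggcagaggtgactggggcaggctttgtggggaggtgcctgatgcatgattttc
The E2 box, read on both strands as CAGGTG or CACCTG, was found 1 time ahead of KRT5, from 130 to 125 bases before the start, and was not found in the KRT8 window. It was present in 17.5% of 35116 such windows of the genome. Searches on both strands for the TATA box (letters TATAAA, in 10.7% of all windows), for the GC box (letters GGGCGG, in 42.6%) and for the AP-1 site (letters TGANTCA, in 6.57%) found no match in either window. The E2 box was added to the searched motifs after the sequence had been seen, and no matches overlap. A match is a description of the sequence and was not tested as a site.

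**Figure D2:**
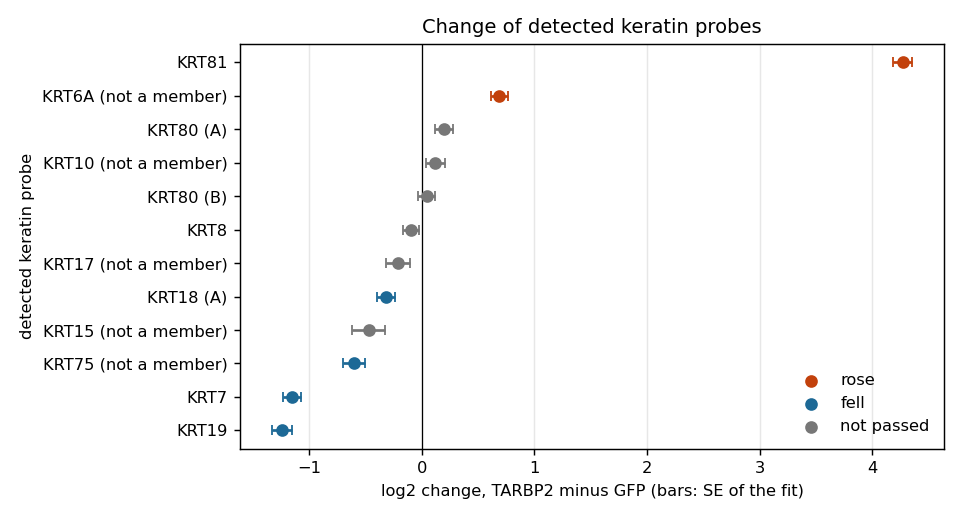
Log2 change between TARBP2 and GFP arrays for the 7 tested probes of the described keratins and for the 5 other keratins that were detected, with bars for the SE of the fit (n = 2 arrays per group). KRT81 lies apart from all other keratins at 4.27, KRT7 and KRT19 lie below -1, and the remaining probes lie between -0.60 and 0.69.

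Beyond these genes, 37 other keratins had a probe, and 32 of them failed the detection filter. For 29 of the 32 no array was above background, and raw intensities of the 32 ranged from 39.9 to 88.2. Of the 5 tested, 1 rose, 1 fell and 3 did not pass. This call share is to be read against the same 40.3% (44.4% with a symbol). KRT6A, a type II keratin of stressed and hyperproliferative epidermis, rose 1.61-fold, from log2 levels of 7.04 and 7.02 with GFP to 7.75 and 7.69 with TARBP2 (limma adjusted p = 0.00362). KRT6A has near-identical relatives in KRT6B and KRT6C, so its value is uncertain. KRT75, a hair follicle keratin, was at least 1.16-fold lower with TARBP2 (limma adjusted p = 0.0106). Its probe entered the test only through the GFP arrays, with neither TARBP2 array above background. Without TARBP2 replicate 1 the adjusted p of KRT75 was 0.0671, and without replicate 2 it was 0.056. KRT15, a type I basal keratin, had a log2 change of -0.47 (adjusted p = 0.0568) and passed in 6 of 12 other settings, among them the authors' normalization (0.0447) and probes detected on all 4 arrays (0.0357). KRT17, a type I keratin of basal and injured epithelia, had a log2 change of -0.21 (adjusted p = 0.183).

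Genes that anchor keratin filaments were mostly lower on the TARBP2 arrays. Of 18 plakin, desmosome and hemidesmosome genes, 13 had a probe and 9 were detected, of which 8 fell and none rose, with a median log2 change of -1.04. The median over all detected probes was -0.0014, and the background share that fell was 19.8% of all detected probes and 21.5% of those with a symbol. This list was chosen with earlier results of these data known, so the count is a description and not a test. One of the 8, DSC3, desmocollin 3, entered the test only through the GFP arrays and was above background on neither TARBP2 array, and among genes detected on all 4 arrays 7 of 8 fell. Without TARBP2 replicate 1 or without GFP replicate 1, 6 of the 9 fell. DSC2, the desmosomal cadherin desmocollin 2, fell 4.01-fold, from log2 levels of 8.57 and 8.56 with GFP to 6.64 and 6.48 with TARBP2 (limma adjusted p = 0.000391), and its other probe also fell (log2 change -1.42). PPL, the plakin periplakin, fell 3.42-fold, from 7.58 and 7.63 to 5.67 and 6.0 (adjusted p = 0.00135). PKP2, the desmosome plaque protein plakophilin 2, fell 2.79-fold, from 9.19 and 9.24 to 7.87 and 7.61 (adjusted p = 0.00139). ITGB4, the hemidesmosome integrin that binds plectin, fell 2.69-fold, from 7.69 and 7.42 to 6.24 and 6.01 (adjusted p = 0.00242). For each of these 4 genes both TARBP2 arrays were below both GFP arrays.

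**Figure D3:**
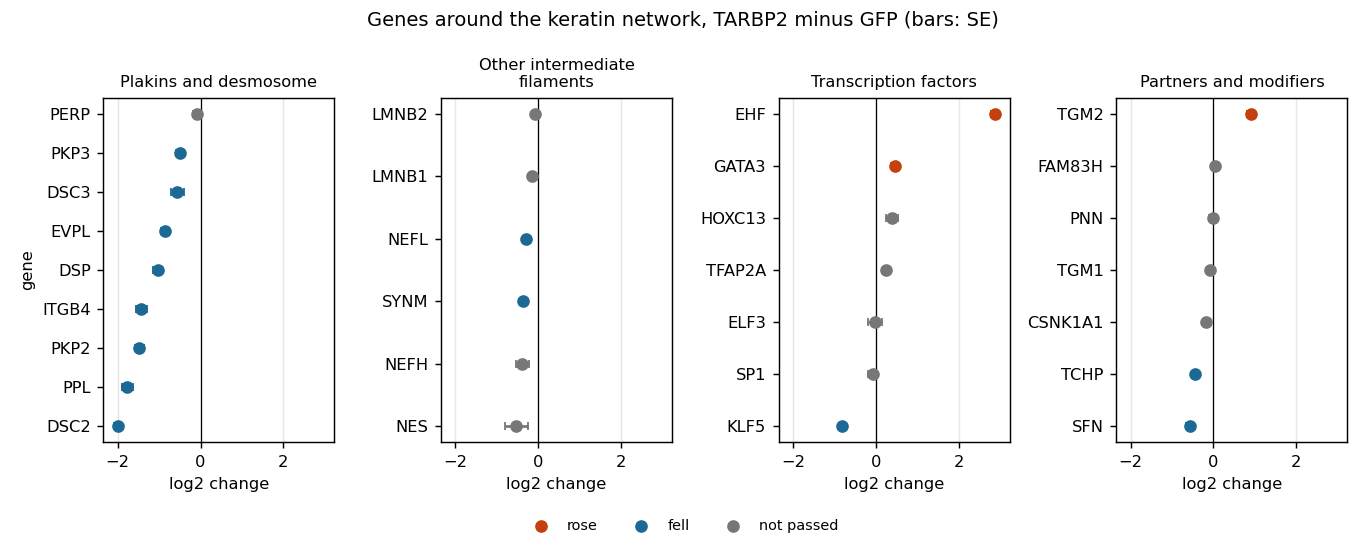
Log2 change between TARBP2 and GFP arrays for detected genes of 4 lists around the keratin filament, with bars for the SE of the fit (n = 2 arrays per group). The plakin and desmosome genes all lie below 0, with DSC2 lowest at -2.0, whereas the other lists spread on both sides of 0 or close below it and EHF lies highest at 2.88.

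Of 13 other intermediate filament genes, 11 had a probe, 6 were detected and 2 fell, with a median log2 change of -0.32. A share of 2 in 6 is to be read against the 19.8% of all detected probes, or 21.5% of those with a symbol, that fell. SYNM, synemin, fell by 0.36 ± 0.09 (log2, SE, limma adjusted p = 0.0318). NEFL, the light neurofilament chain, was at least 1.15-fold lower (limma adjusted p = 0.0423). It entered the test only through the GFP arrays, with neither TARBP2 array above background. Among the genes of this list detected on all 4 arrays, 1 of 4 fell. NEFH, the heavy chain, had a log2 change of -0.38 (adjusted p = 0.11) and LMNB1, a nuclear lamin, of -0.14 (adjusted p = 0.186). Leaving out any 1 of the 4 arrays ended both calls, with an adjusted p of 0.061 to 0.12 for SYNM and of 0.0842 to 0.152 for NEFL. VIM, assigned through a pair of probes, is not in that count. Its probes had log2 changes of -0.17 (adjusted p = 0.136) and -0.25 (adjusted p = 0.0484).

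Of 7 detected transcription factors known from keratin gene control, 2 rose and 1 fell, with a median log2 change of 0.24. A call share of 3 in 7 is near the background of 40.3% (44.4% with a symbol). EHF, an ETS factor of epithelial cells, rose 7.39-fold, from log2 levels of 5.45 and 5.58 with GFP to 8.48 and 8.32 with TARBP2 (limma adjusted p = 0.000208). Its log2 change was 2.88, against 2.06 on the authors' normalized intensities, 2.22 with an offset of 50 and 2.03 without background correction. KLF5, a Krüppel-like factor of proliferating epithelium, fell 1.76-fold, from 10.08 and 9.98 to 9.25 and 9.19 (adjusted p = 0.0029). GATA3, a luminal factor, was at least 1.13-fold higher (limma adjusted p = 0.0198). It entered the test only through the TARBP2 arrays, with neither GFP array above background. It did not pass once the median change of its neighbours was taken off (log2 change 0.03, adjusted p = 0.784), nor without TARBP2 replicate 2 (0.076), GFP replicate 1 (0.0776) or GFP replicate 2 (0.0675). TFAP2A, an AP-2 factor, had a log2 change of 0.24 (adjusted p = 0.0548).

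Of 7 detected proteins that bind or modify keratins, 1 rose and 2 fell, with a median log2 change of -0.08, a call share near the same background of 40.3% (44.4% with a symbol). TGM2, a transglutaminase that crosslinks proteins, rose 1.87-fold, from 12.35 and 12.47 with GFP to 13.35 and 13.28 with TARBP2 (limma adjusted p = 0.0025). TCHP, trichoplein, which binds keratin filaments, fell by 0.45 ± 0.07 (log2, SE, adjusted p = 0.00942) and SFN, the keratin-binding 14-3-3 sigma, by 0.56 ± 0.09 (adjusted p = 0.00958). Without TARBP2 replicate 1 or replicate 2, TCHP (adjusted p = 0.053 and 0.0521) and SFN (0.0609 and 0.0533) did not pass. CSNK1A1, casein kinase 1 alpha, had a log2 change of -0.17 (adjusted p = 0.153).

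Single markers of other cell types also differed between the groups. Of 5 leukocyte markers with a probe, CD14 rose (log2 change 1.96, limma adjusted p = 0.000863) and CD2 was detected without passing. The other CD14 probe rose less (log2 change 1.05, limma adjusted p = 0.0216). PTPRC, CD3E and ITGAM failed the detection filter. The summed raw intensity of the list was 1080 to 1091 on the TARBP2 arrays and 654 to 690 on the GFP arrays. Most of that gap lay in 1 CD14 probe, which read 639.0 and 666.5 with TARBP2 and 218.5 and 192.5 with GFP. Of 5 fibroblast and endothelial markers with a probe, DCN fell (log2 change -2.29, limma adjusted p = 0.000272) and PECAM1 did not pass. PDGFRB was at least 1.34-fold higher (limma adjusted p = 0.00615), but entered the test only through the TARBP2 arrays, with neither GFP array above background. VWF and CDH5 failed the filter, and the list summed to 583 to 606 with TARBP2 and to 1098 to 1111 with GFP. Here most of the gap lay in DCN, which read 172.3 and 185.5 with TARBP2 and 698.7 and 680.1 with GFP. Leaving out the keratins, 5 luminal markers summed to 335 to 336 and 349 to 369, and 5 basal and keratinocyte markers to 1657 to 1681 and 2126 to 2356. SFN made up most of the basal sum, at 1155.0 and 1208.6 with TARBP2 and 1614.5 and 1860.0 with GFP. Of these lists' other genes, CDH1, E-cadherin, was at least 1.14-fold lower (limma adjusted p = 0.0148). It entered the test only through the GFP arrays, with neither TARBP2 array above background. The part of other cell types in the keratin changes was not tested.

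Of the 10 keratins, 8 lie in the type II cluster of chromosome 12, where KRT18 is the type I exception, and KRT14 and KRT19 lie in the type I cluster of chromosome 17. The 50 nearest tested genes around the chromosome 12 keratins had a median log2 change of -0.11, with 9 higher and 14 lower. The nearest tested genes outside the keratins were ATG101, an autophagy gene (log2 change -0.21, adjusted p = 0.185), on one side and EIF4B, a translation initiation factor (-0.19, adjusted p = 0.133), on the other. TARBP2 itself is among the 50. Around the chromosome 17 keratins the median was 0.01, with 11 of 50 higher and 10 lower. The share of called genes around either locus is near the background of 40.3% (44.4% with a symbol). There the nearest tested genes outside the keratins were SMARCE1, a chromatin remodelling subunit (0.15, adjusted p = 0.217), and EIF1, an initiation factor, which fell (-0.31, adjusted p = 0.0353). Within the chromosome 12 cluster, KRT7, which fell, and KRT81, which rose, were next to each other in the order of tested genes.

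**Figure D4:**
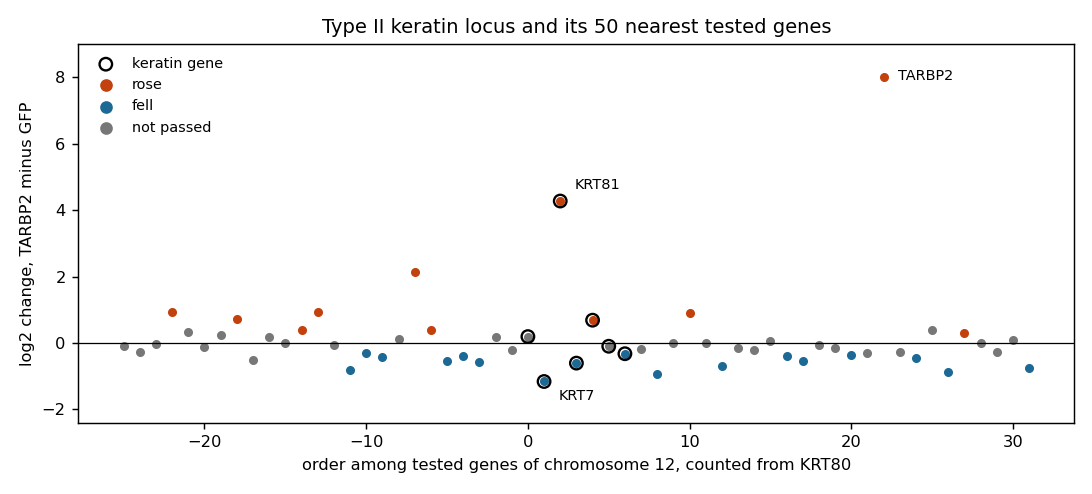
Log2 change between TARBP2 and GFP arrays against gene order on chromosome 12, for the tested keratins (ringed) and the 50 nearest tested genes, coloured by whether they rose, fell or did not pass. KRT81 at 4.27 stands next to KRT7 at -1.16, and the plasmid-encoded TARBP2 is the highest point at 8.0.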

How the data were processed

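Expression was measured on 4 Illumina BeadChips of MDA-231 cells, 2 with the TARBP2 plasmid and 2 with the GFP plasmid, grouped by the sample labels. The deposited non-normalized intensity is mean bead brightness without background subtraction, and beside it stands, per the file headers, a detection p-value. The authors' series-matrix intensity is quantile normalized, and the submitters' processing notes name lumi. The authors' final table gives, per the file headers, a log ratio per accession, treated as log2. No table pairs probes with accessions. Their log ratio equalled the group difference of 1 scaled inverse hyperbolic sine of the series-matrix values, so an accession was tied to the 1 probe matching within 1e-09, which held for 33114 of 39747 accessions (83.3%), against at most 14 in shifted tables. In a simulation 99.95% of ties were to the right probe. KRT80 was tied to the only pair of unused probes whose mean matched within 7e-10. In simulations 505 of 505 such pairs were right, but among 602 untied accessions of like log ratio 450 had 1 matching pair, against 81 after a shift. The KRT80 probes also stand in adjacent rows between KRT8 and KRT81 in a file whose tied rows follow alphabetical order of symbol in 92.6% of steps. VIM, AXL and CAV1 were tied in the same way. Symbols came from RefSeq (GRCh38.p14), whose coordinates were used only for gene order and for the printed promoter windows.

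Intensities were processed with neqc (offset 16; limma 3.58.1, R 4.3.3). The fit (limma's lmFit and eBayes) took the 22123 probes detected at p under 0.05 on 2 or more arrays, with 2-sided p-values adjusted jointly by Benjamini-Hochberg, on 2 residual and 2.81 prior degrees of freedom. "Rose" and "fell" mean an adjusted p under 0.05, and the number of arrays limits the precision. Where a group had no array above background, the fold is a bound. List counts use genes tied to 1 probe, represented by the detected probe of highest mean level. The members and lists were chosen with earlier results of these data known, and up to 4 genes of smallest p are named per list. Marker genes outside that rule were named after their values were seen, and 1 leukocyte marker is not reported here. Alternatives were the authors' normalization, another offset, no background correction, other filters, named genes only, a replicate block, leaving out each array, and removal of neighbourhood medians (25 genes per side).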

Additional observations from a re-analysis of the deposited data

How the results depend on the processing

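Under the alternatives tried, KRT81, KRT7 and KRT19 kept their direction and passed in each of 12 settings, with log2 changes of 4.12 to 4.38, -1.20 to -1.05 and -1.31 to -1.17. KRT8 passed in none of 12 (-0.12 to 0.01), and KRT80 probe A passed in 1. The number of keratin probes that differed was 3 or 4 in the 11 settings that gave a count. KRT18 was not tested among probes detected on all 4 arrays, and was lost in the other settings with a count of 3. With neighbourhood medians taken off, KRT18 was lost (adjusted p = 0.0682) and KRT80 probe A was gained (0.0249). The number of all probes that differed was 8917, against 4567 of 9021 when only named genes were fitted and 4595 to 5780 with 1 array left out. The cause was not tested beyond the fewer features or arrays fitted. Of 9 plakin and desmosome genes, 6 to 8 fell with 1 array left out and 7 or 8 fell in the other settings, an alternative added after the data were seen. With the replicate number as a block 8067 probes differed and KRT18 did not pass (adjusted p = 0.0616), nor did SYNM (0.0555) or NEFL (0.074), and the deviations of same-numbered arrays were uncorrelated (r = 0.0062), so the numbers were not taken to pair the samples. KRT5, KRT14, KRT83 and most other keratins are limited by background, so that a change in them was not detectable here.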
